A study of Mus musculus with 2 samples.

Results

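Notch1, Notch2, Notch3 and Notch4, the 4 Notch receptors of the mouse, and their 5 ligands Jag1, Jag2, Dll1, Dll3 and Dll4 were examined in Prrc2a RIP-seq of the brain. The 9 genes are a family taken up with earlier results of the same lists known, and their peaks were chosen by a measured value, the peak position. Every peak of either replicate that overlapped an exon of 1 of the 9 genes by at least 1 bp was taken (GENCODE M21, mm10). A replicate 1 peak was shared when it overlapped a replicate 2 peak by at least 1 bp. This rule gave 51 of 18129 peaks in replicate 1, 47 of them shared, and 68 of 18671 peaks in replicate 2, 51 of them shared. There was 1 condition in 2 replicates: whole brain, wild type, strain C57BL/6J, age 4 weeks, with 3 male brains named in the protocol. Each value is therefore given as replicate 1 and replicate 2 of the same condition, and no test between groups was possible. Prrc2a is an RNA-binding protein that reads m6A, a methyl mark on adenosine in mRNA, and RIP-seq sequences the RNA fragments that come down with an antibody against it. A peak is a stretch where fragments were more frequent than in the control library, and its fold enrichment is that ratio on a linear scale. The read depth is not in the peak lists and is unknown, so a gene without a peak may lack binding or may lack reads, and these cannot be told apart.

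Notch receptors are single-pass membrane proteins whose outer part is a long chain of EGF-like repeats. A ligand on a neighbouring cell pulls on the receptor, ADAM proteases and gamma-secretase cut it, and the freed intracellular domain moves to the nucleus, where it joins Rbpj and a Mastermind-like coactivator on target genes such as the Hes and Hey repressors. In the brain the pathway is known for keeping neural progenitors undifferentiated, for holding back oligodendrocyte precursors and favouring astrocytes, and for shaping vessels. Jag1 and Jag2 are the Serrate-type ligands and Dll1 and Dll4 the activating Delta-type ligands, while Dll3 is a divergent member that does not activate receptors in trans.

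One coding stretch is printed for each of the 5 genes with a shared coding peak, since these stretches lay under peaks of both replicates and show what kind of message was recovered. Each is the part of a single exon inside both peaks of the coding pair with the highest mean fold enrichment, read 5′ to 3′ on the strand of the gene from GRCm38. Capitals mark GGAC, the core of the m6A consensus. The Notch1 stretch is exon 8, which encodes part of the EGF-like repeats (chr2:26479871-26480056, minus strand, CDS bases 1256 to 1441). The Notch2 stretch lies in exon 30 and encodes intracellular domain between the membrane and the ankyrin repeats (chr3:98141464-98141629, plus strand, CDS bases 5317 to 5482). The Jag1 stretch from exon 4 (chr2:137101611-137101826, minus strand, CDS bases 449 to 664) and the Dll1 stretch from exon 4 (chr17:15373441-15373628, minus strand, CDS bases 476 to 663) both run into the DSL domain, with which these ligands bind the receptor. The Jag2 stretch comes from exon 2, which encodes the amino-terminal region (chr12:112928987-112929223, minus strand, CDS bases 76 to 312).
Notch1 exon 8: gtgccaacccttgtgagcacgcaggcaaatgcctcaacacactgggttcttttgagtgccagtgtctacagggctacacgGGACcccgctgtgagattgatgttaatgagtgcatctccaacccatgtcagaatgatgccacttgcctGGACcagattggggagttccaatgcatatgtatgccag
Notch2 exon 30: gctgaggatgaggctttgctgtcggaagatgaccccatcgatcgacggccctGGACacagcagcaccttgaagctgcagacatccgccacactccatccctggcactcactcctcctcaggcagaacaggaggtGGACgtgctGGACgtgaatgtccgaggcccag
Jag1 exon 4: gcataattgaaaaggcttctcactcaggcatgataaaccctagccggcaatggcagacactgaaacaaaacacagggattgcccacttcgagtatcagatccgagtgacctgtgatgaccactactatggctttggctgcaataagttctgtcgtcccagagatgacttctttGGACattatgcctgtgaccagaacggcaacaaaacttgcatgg
Jag2 exon 2: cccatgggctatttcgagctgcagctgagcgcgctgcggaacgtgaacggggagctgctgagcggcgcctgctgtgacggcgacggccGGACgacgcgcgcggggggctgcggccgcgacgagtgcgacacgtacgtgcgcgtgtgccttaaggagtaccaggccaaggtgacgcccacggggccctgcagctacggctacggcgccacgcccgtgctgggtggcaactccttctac
Dll1 exon 4: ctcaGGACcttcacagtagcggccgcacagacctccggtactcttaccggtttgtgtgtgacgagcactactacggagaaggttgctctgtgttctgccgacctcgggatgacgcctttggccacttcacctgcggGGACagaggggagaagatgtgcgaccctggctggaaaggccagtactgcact
The stretches held 2 GGAC motifs in Notch1, 3 in Notch2, 1 in Jag1, 1 in Jag2 and 2 in Dll1.

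Of the 9 genes, 5 carried a peak at the same place in both replicates, and the receptors Notch1 and Notch2 carried most of them. Notch1 had 18 shared peaks and Notch2 had 20, which together made 38 of the 47. Among ligands, Jag1 had 4 shared peaks, Dll1 had 3 and Jag2 had 2. Notch3 had 1 peak in replicate 1 and 5 in replicate 2, none shared, and Dll4 had 1 peak in replicate 1 alone. Notch4 and Dll3 had no peak in either replicate. Over all 21938 protein-coding genes, 2629 had a shared exonic peak (12.0%), and among the 13181 genes with exons at least as long as those of Dll3, the shortest member at 2850 bases, 2418 had one (18.3%). By replicate, 7 members had a peak in replicate 1, where 16.5% of protein-coding genes had one, and 6 members in replicate 2, where 21.1% had one. The peaks themselves chose the members' rows, so nothing is read from the distance between these shares.

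**Figure D1:**
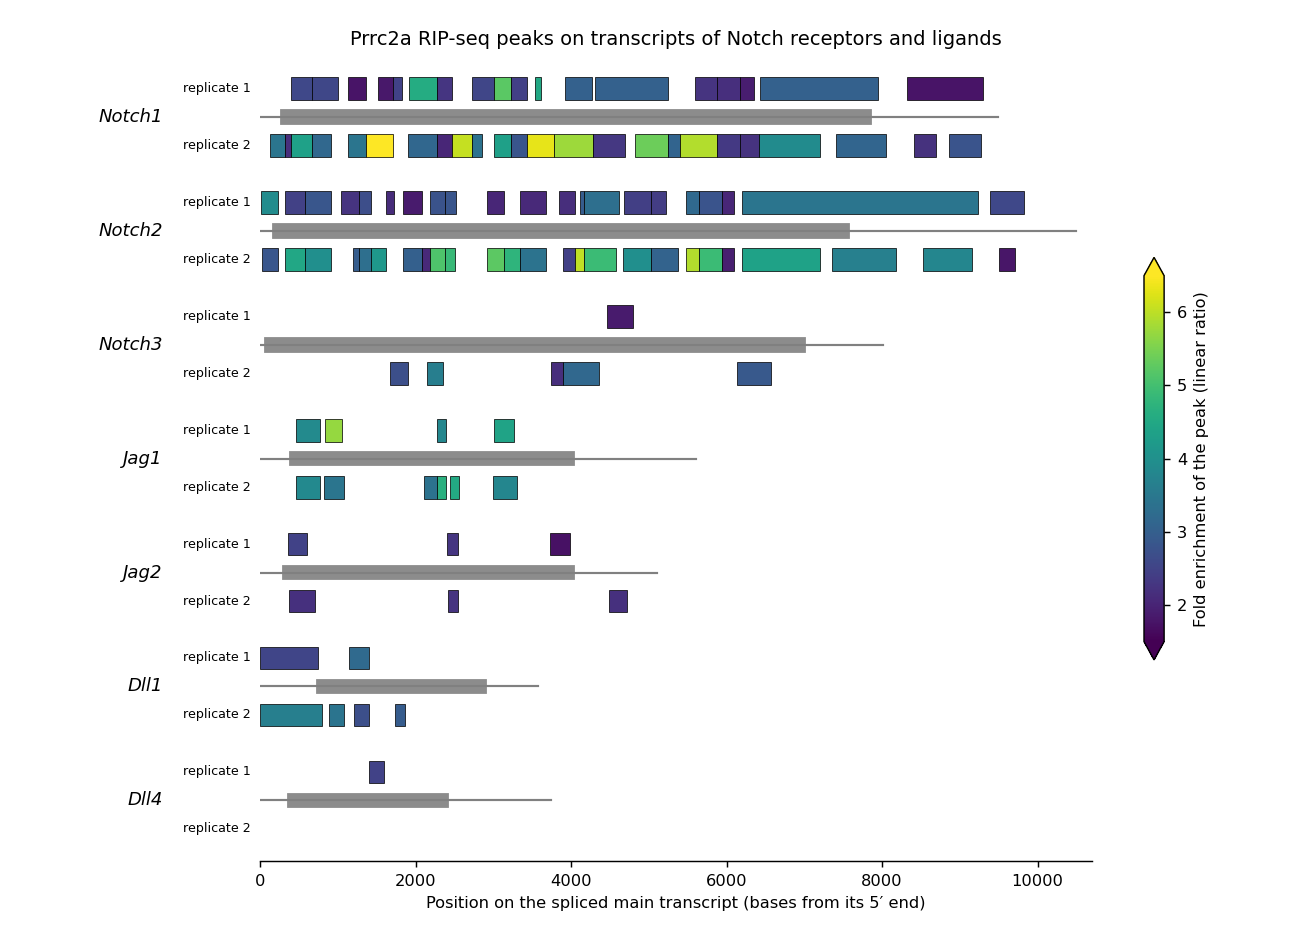
Peaks drawn on the spliced main transcript of the 7 members that had any, with the position in bases from the 5′ end on the x axis, the coding sequence as a thick grey bar, and replicate 1 above and replicate 2 below it. Boxes are the exonic part of each peak and their colour is its fold enrichment, with the scale ending at 6.5. Notch1 and Notch2 were tiled along most of their length in both replicates, while the ligands carried separate short peaks and Notch3 carried peaks at different places in the replicates. The first Dll1 peak of each replicate lay outside the main transcript and is not drawn.

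Notch1 (chr2:26457903-26516663, minus strand, 34 exons) was covered along most of its coding sequence. Peaks lay over 74.1% of the 9488 bases of its main mRNA in replicate 1 and over 81.5% in replicate 2, and 64.0% lay under both. They touched 26 of 34 exons in replicate 1 and 31 in replicate 2, and 24 exons in both. Exon 5, of 123 bases, was the single exon without a peak in either replicate. Of the coding bases 69.6% lay under peaks of both replicates, and of the 3′ UTR 48.1%, whereas none of the 264 bases of the 5′ UTR did.

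The highest member peak of all was a replicate 2 peak of Notch1 with a fold enrichment of 10.2 (chr2:26479607-26480519). It ran over exons 7 and 8, with 37.5% of its 913 bp in exons. In replicate 1 it met 1 peak over exon 8 with a fold enrichment of 1.83 and 1 peak over exon 9 with 2.49. Its enrichment thus stood far above that of both partners, and the overlap with the exon 9 peak was only 55 bp, the smallest of all member pairs. Those 55 bp were intronic, so that pair shares no exonic base. The nearest peaks that failed the overlap were a replicate 2 peak over Jag1 exon 14, which missed a replicate 1 peak by 236 bp, and a replicate 2 peak over Notch1 exons 14 and 15, which missed by 241 bp and had a fold enrichment of 6.07.

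Peaks with high enrichment in both replicates lay further along Notch1. Over exon 18 (chr2:26472659-26473104 in replicate 1) replicate 1 had a fold enrichment of 5.22 and replicate 2 of 4.32. Over exons 20 and 21 (chr2:26470982-26471203 in replicate 1) it was 4.51 and 6.32. These were the 2 pairs of the whole family at or above 4 in both replicates. The peak over exons 10 to 12 had 4.57 and 3.16, and that over exons 28 to 30 had 2.25 and 5.93, so the order of the peaks within Notch1 was not the same in the replicates.

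The last exon of Notch1 held the stop codon and the only peaks that lay wholly in exonic sequence. A replicate 1 peak of 1517 bp covered the stop codon with a fold enrichment of 3.04 (chr2:26459443-26460959), and replicate 2 divided the same stretch into peaks of 3.88 and 3.11, the latter over the stop codon. Further downstream in the 3′ UTR, a replicate 1 peak of 1.76 met replicate 2 peaks of 2.20 and 2.79. This distal peak also lay over exons of 0610009E02Rik and Gm13568, and the replicate 2 peak over the stop codon also lay over exonic sequence of 0610009E02Rik. Since the lists carry no strand, the reads of these peaks cannot be assigned to Notch1 alone. The start codon was covered in replicate 2 only, by a peak of 3.44 over exon 1, followed by 1 of 2.16 over exon 2.

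Notch2 (chr3:98013527-98150361, plus strand, 34 exons) was also covered along most of its length and, unlike Notch1, from the first exon in both replicates. Of the 10500 bases of its main mRNA, 74.2% lay under peaks of replicate 1, 69.9% under peaks of replicate 2 and 62.9% under both. Peaks touched 22 exons in replicate 1, 24 in replicate 2 and 21 in both, and 9 exons had none. Over exon 1, which holds the start codon, the fold enrichment was 3.91 in replicate 1 and 2.83 in replicate 2, and 142 of the 161 bases of the 5′ UTR lay under both peaks. This start-codon peak was the highest of Notch2 in replicate 1 and among the lower ones in replicate 2. Its exact replicate 1 value was carried by 44 peaks of that list.

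Downstream of exon 1, the shared coding peaks of Notch2 were higher in replicate 2, except over exon 32, with 2.03 in replicate 1 and 1.92 in replicate 2. Over exon 24 the fold enrichment was 2.93 in replicate 1 and 6.02 in replicate 2, and over exon 30, shown above, it was 3.18 and 5.93. Over exon 18 it was 2.03 and 5.24, and over exon 13 it was 2.78 and 5.11. The last exon carried a replicate 1 peak of 3032 bp, the longest of the family, with a fold enrichment of 3.43 (chr3:98146064-98149095). In replicate 2, 3 peaks of 4.38, 3.67 and 3.80 lay over the same stretch with gaps between them. Of the bases of exon 34, 3469 (80.5%) lay under peaks of replicate 1 and 2666 (61.9%) under peaks of replicate 2. A last peak near the 3′ end had 2.58 and 1.77. No partner was found for 4 Notch2 peaks, 1 over exon 9 in replicate 1 (2.11) and 3 in replicate 2 over exons 8 (4.17), 12 (2.08) and 19 (4.74). The peak over exon 19 and the shared pair over exons 20 and 21 (2.07 and 3.41) also lay over exonic sequence of Gm42820.

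**Figure D2:**
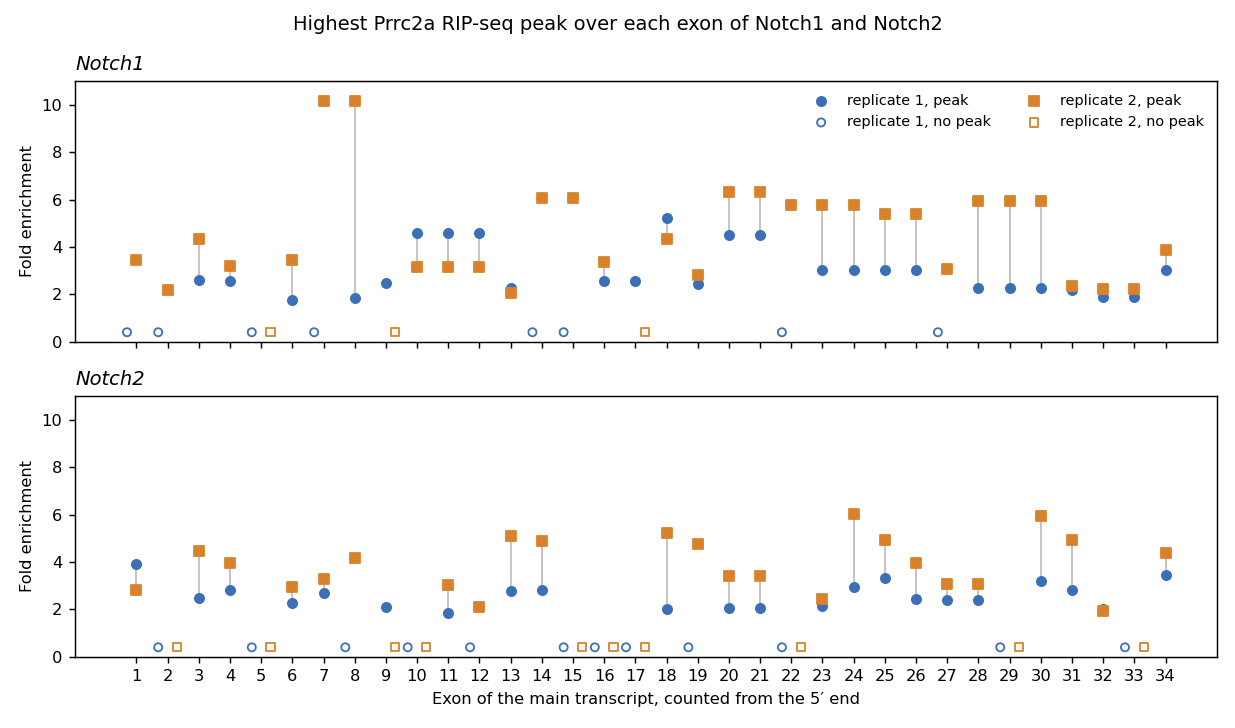
Fold enrichment (y axis, linear ratio) of the highest peak over each exon (x axis, counted from the 5′ end of the main transcript) of Notch1 and Notch2, with circles for replicate 1 and squares for replicate 2. Filled symbols are peaks, open symbols at the bottom mark exons without a peak in that replicate, and a peak over several exons is drawn at each. The highest point is the replicate 2 peak of 10.2 over Notch1 exons 7 and 8, and 9 exons of Notch2 have open symbols for both replicates.

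The covered exons of the paralogues were compared by exon number. Of the 34 exons, 21 have the same length in Notch1 and Notch2 and 29 are within 10 bases. Peaks of both replicates touched 17 exon numbers in both genes, which was 70.8% of the 24 of Notch1 and 81.0% of the 21 of Notch2. Over all 34 exons, the touched share was 61.8% in Notch2 and 70.6% in Notch1. Whether the overlap exceeded what these shares alone would give was not tested. Exons 2, 5, 9, 15, 17 and 22 were not touched by both replicates in either gene. These 6 had a median length of 118.5 bases, against 234 bases for the exons covered in both genes. Within Notch2 the exons touched in both replicates had a median length of 229 bases and the remaining ones 114 bases, and within Notch1 the medians were 197.5 and 139.5 bases. Over all genes with a shared peak the medians were 650 bases for 5647 touched exons and 133 bases for 29874 others, so touched exons were the longer ones over the whole list too.

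Notch3 (chr17:32120820-32166852, minus strand, 33 exons), the receptor known from mural cells of vessels, showed peaks in either replicate but at different places. In replicate 1 it had 1 peak over exon 25 with a fold enrichment of 1.86, which also lay over an exon of Gm17276. In replicate 2 it had 5 peaks, over exon 11 (2.71), exons 13 and 14 (3.61), exons 22 and 23 (2.16), exon 24 (3.17) and exon 33 (2.88). The closest pair was 1767 bp apart, and 4.15% of the mRNA lay under peaks in replicate 1 and 18.6% in replicate 2. Notch4 (chr17:34564268-34588503, plus strand, 30 exons), a receptor of endothelial cells, had no peak, although its mRNA of 6591 bases is longer than that of any ligand.

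Jag1 (chr2:137081456-137116644, minus strand, 26 exons) carried the most enriched ligand peaks, all of them over coding exons. Over exon 2 the fold enrichment was 3.87 in replicate 1 and 3.85 in replicate 2, and over exon 4 it was 5.71 and 3.44. Over exon 15 it was 3.82 and 4.68, and over exons 22 and 23 it was 4.39 and 3.79. All 10 Jag1 peaks, 4 in replicate 1 and 6 in replicate 2, lay above the median of their replicate, which was 2.84 in replicate 1 and 2.63 in replicate 2. Replicate 2 had 2 further peaks, over exon 14 (3.39) and exons 16 and 17 (4.51). The peaks covered 15.9% of the mRNA in replicate 1, 22.4% in replicate 2 and 15.9% in both, and neither UTR was touched in both. Exact fold values recurred here: 2 of 4 replicate 1 values and 6 of 6 replicate 2 values of Jag1 were carried by at least 10 peaks of the same list, against 24.8% and 15.3% of all peaks. The highest of them, 5.71 over exon 4, was carried by 73 replicate 1 peaks.

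Jag2 (chr12:112907819-112929776, minus strand, 26 exons) had low peaks in both replicates. Over exon 2 the fold enrichment was 2.50 in replicate 1 and 2.20 in replicate 2, and over exons 16 to 18 it was 2.27 and 2.25. This second pair held exon 17 whole, but only 9 bases of exon 16 and 1 base of exon 18 lay under both peaks. None of its 6 peaks reached the median of its replicate. Near the 3′ end the replicates had separate peaks 503 bp apart, 1 of 1.73 over the coding part of exon 26 in replicate 1 and 1 of 2.20 over the 3′ UTR in replicate 2. In all, 7.07% of the mRNA lay under peaks of both replicates.

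Dll1 (chr17:15367354-15376872, minus strand, 11 exons) was the member whose 5′ UTR was wholly covered. All 736 bases of the 5′ UTR of the main transcript lay under peaks of both replicates, by a pair over exon 1 and the start codon enriched 2.52-fold in replicate 1 and 3.63-fold in replicate 2 (chr17:15375229-15376034 in replicate 1). Upstream, a pair of 3.18 and 2.43 lay over an exon of another Dll1 transcript. Both pairs also overlapped exons of A930024N18Rik, so 1 of 3 shared Dll1 peaks, the pair of 3.21 and 2.69 over exon 4, could be assigned to Dll1 alone. Replicate 2 had 2 further coding peaks, over exon 2 (3.43) and exons 7 and 8 (2.93). Of the mRNA 28.0% was covered in replicate 1, 36.5% in replicate 2 and 26.1% in both.

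Dll4 (chr2:119325784-119335962, plus strand, 11 exons), the ligand of sprouting vessels, had 1 peak over exon 8 in replicate 1 with a fold enrichment of 2.49 (chr2:119330982-119331187), and the nearest replicate 2 peak was 33192 bp away. Dll3 (chr7:28293553-28302238, minus strand, 9 exons) had none. The whole-brain origin of the sample could not be checked with these lists. Of 31 markers, 2 had a shared peak, the microglial genes Csf1r and Tmem119, and that of Csf1r also lay over exons of another gene. None of 5 neuronal, 4 astrocytic, 5 oligodendrocyte lineage, 6 endothelial or 3 mural markers had a shared peak. Neither did any of 4 markers of liver, muscle and blood.

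**Figure D3:**
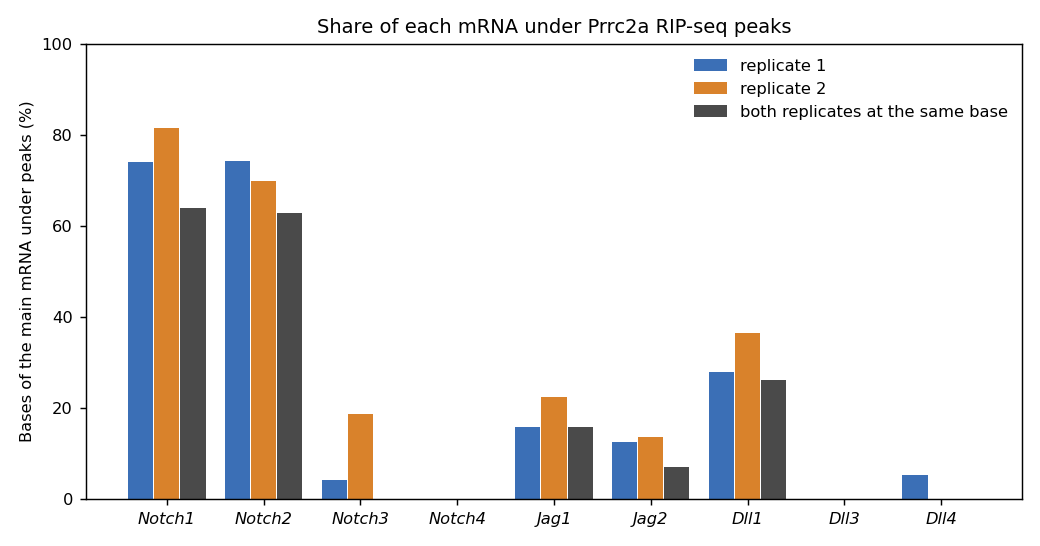
Percentage of bases of the main mRNA (y axis) of each of the 9 members under peaks of replicate 1, of replicate 2 and of both at the same base. Notch1 and Notch2 stand at 64.0% and 62.9% in both replicates, followed by Dll1 at 26.1%, Jag1 at 15.9% and Jag2 at 7.07%, and the other 4 genes have no base under both. For Dll1, 748 of the bases under both lie in exon 1, under a pair that also lies over exons of A930024N18Rik, and 188 lie in exon 4. The place of Dll1 among the ligands therefore rests on a pair that cannot be assigned to it alone.

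Long genes offer more exonic bases to peaks, so the members were also ranked by count and by covered share among the 2629 genes with a shared peak. By count, Notch2 was the 8th and Notch1 the 10th gene, with 51 peaks in the first, Csmd1, and a median of 2 per gene. Over the exons of all their transcripts, 61.3% of Notch2 and 43.6% of Notch1 lay under peaks of both replicates, which placed them 123rd and 299th. The share for Notch1 was lower here than on its main mRNA because the exons of its 11 transcripts sum to 14232 bases. Dll1 at 25.9%, Jag1 at 15.3% and Jag2 at 5.18% lay on either side of the median of 11.4%. Most of the Dll1 bases lay under pairs that also overlap exons of A930024N18Rik, so its share cannot be assigned to Dll1 alone. Of 209 genes with a shared peak and at least 33 exons in the main transcript, the median had 5.88% of exons touched in both replicates, and 4 genes, Notch1 at 70.6% and Notch2 at 61.8% included, reached the share of Notch2. Both limits were set from members, the exon number from Notch3 and the share from Notch2. The members were also taken up with these lists known, so nothing is read from this count or from the ranks.

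**Figure D4:**
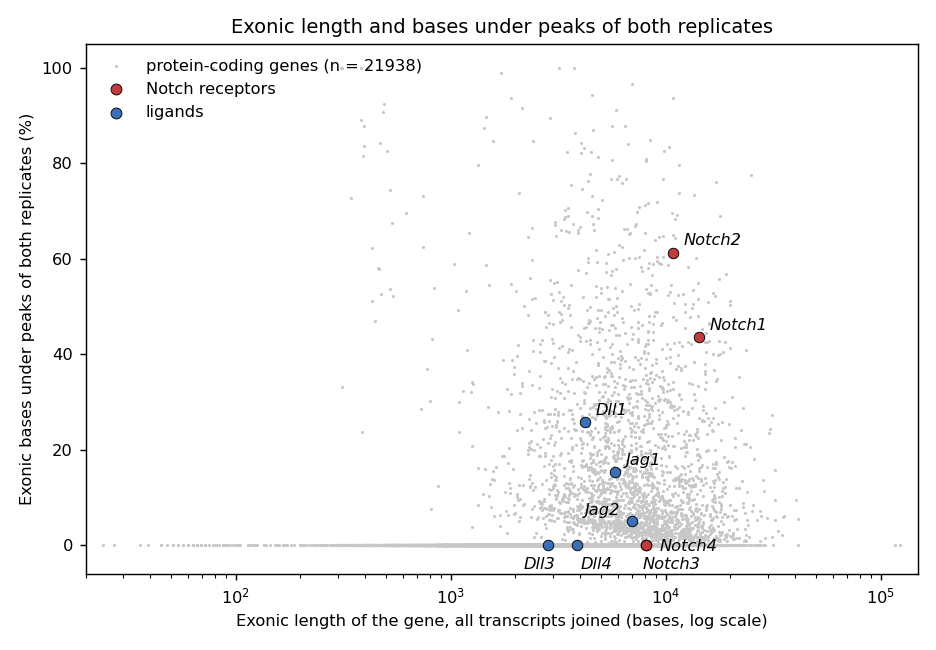
Exonic length of each protein-coding gene (x axis, bases, log scale) against the percentage of these bases under peaks of both replicates (y axis). Grey dots are 21938 genes, red points the receptors and blue points the ligands. Notch2 at 61.3% and Notch1 at 43.6% stand above the other members, and Notch3, Notch4, Dll3 and Dll4 lie at 0.

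The genes next to Notch2 in covered share were Rtl5 (62.0%), Znrf3 (61.9%) and Akna (61.5%) above it and Adgra1 (61.1%), Atxn1l (60.5%) and Zfp646 (60.4%) below it. These 6 genes reached that share with 2 to 9 shared peaks over 4761 to 9723 exonic bases, against 20 peaks over 10782 bases in Notch2.

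Of the members' peaks, 47 of 51 in replicate 1 and 51 of 68 in replicate 2 overlapped a peak of the other replicate. Shared pairs were chosen for overlap, so their overlap is no separate evidence that the replicates placed peaks alike. Of the 47 shared pairs, 37 overlapped by at least 50% of both peaks, against 5298 of 8372 over all shared peaks, and the median overlap was 384 bp. Fold enrichment was higher in replicate 2 in 15 of 18 Notch1 pairs and 17 of 20 Notch2 pairs, with a median log2 ratio of replicate 2 over replicate 1 of 0.45 and 0.63. In the ligands it was higher in replicate 2 in 1 of 4 Jag1 pairs (median log2 ratio -0.11), 0 of 2 Jag2 pairs (-0.10) and 1 of 3 Dll1 pairs (-0.25). Over all 8372 shared peaks the median log2 ratio was 0.25, with 5898 higher in replicate 2. Within their replicate, the members' 51 peaks of replicate 1 had a median percentile of 41.9, with 17 above the median, while the 68 peaks of replicate 2 had 72.3, with 53 above it. The median percentiles were 41.1 and 69.2 for Notch1 and 43.0 and 81.6 for Notch2, and single peaks departed from this, such as Notch1 exon 18, which was high in both replicates, and Notch2 exon 32, which was low in both. Spearman's rho of fold enrichment between replicates was 0.30 over the 18 Notch1 pairs, 0.41 over the 20 Notch2 pairs and 0.58 over all 8372, as a description, since peaks of a gene share a transcript and a library.

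**Figure D5:**
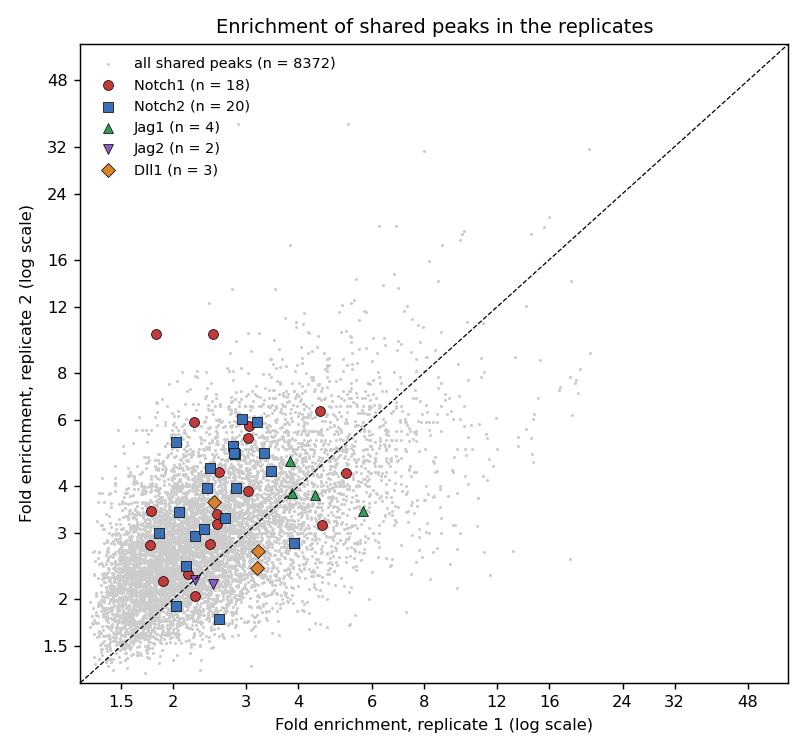
Fold enrichment of each shared peak in replicate 1 (x axis, log scale) and of its best-overlapping partner in replicate 2 (y axis, log scale), with the 8372 shared peaks in grey, the members in colour and equal values on the dashed line. Most Notch1 circles and Notch2 squares lie above the line (15 of 18 and 17 of 20) and most ligand symbols on or below it, and the 2 circles at 10.2 are the same replicate 2 peak.

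Most shared member peaks sat in coding sequence. At the midpoint, 35 of 47 shared member peaks were coding (74.5%), 3 were 3′ UTR (6.38%), 3 were 5′ UTR and 5 were intronic, against 50.9% coding, 30.1% 3′ UTR, 11.3% 5′ UTR and 4.22% intronic among 7317 shared exonic peaks of protein-coding genes. Over all member peaks, shared or not, the coding share was 39 of 51 in replicate 1 (76.5%) and 49 of 68 in replicate 2 (72.1%), or 74.3% ± 3.11 (SD, n = 2). The 47 peaks come from 5 transcripts, 2 of which hold 38, and most of these transcripts' bases are coding, so this is a description of Notch1 and Notch2 rather than of 47 independent sites. By the region with the most bases under a peak, 23 of 47 were coding (48.9%), since peaks over short exons reached into the flanking introns. No share by this rule is at hand for the 7317 peaks, so the contrast with 50.9% holds for the midpoint rule only. The median share of a peak that was exonic was 56.7% for Notch1 and 56.8% for Notch2 in replicate 1, and 61.2% and 52.2% in replicate 2. Each of the 51 replicate 1 peaks and 68 replicate 2 peaks within the whole gene spans of the members touched an exon. Over all protein-coding genes, 25.4% of peaks within gene spans touched no exon in replicate 1 and 7.4% in replicate 2. The members were taken up with these lists known, so nothing is read from this difference.

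GGAC occurred in 36 of the 47 shared peaks (76.6%), against 77.0% of the 7317. The exonic part of each replicate 1 peak was searched on the strand of its gene, and the longer GGACT was counted as an alternative, given below. GGAC was in 14 of 18 Notch1 peaks, 15 of 20 Notch2 peaks, 3 of 4 in Jag1, 1 of 2 in Jag2 and 3 of 3 in Dll1. Windows of equal length placed at every position of the same mRNAs held it in 73.3% on average. Within Notch1, the mRNA bases under both replicates held 6.76 GGAC per kb and the rest 5.85, while in the other genes they held fewer than the rest, 5.75 against 6.16 in Notch2, 3.37 against 3.81 in Jag1, 2.77 against 6.53 in Jag2 and 4.27 against 6.43 in Dll1. Over the coding sequence alone the values were 6.81 against 6.06 in Notch1, 5.57 against 6.68 in Notch2, 3.37 against 5.43 in Jag1, 2.77 against 6.80 in Jag2 and 10.0 against 6.61 in Dll1, the last from 2 motifs in 200 covered bases, so the direction in Dll1 turned. The Notch4 mRNA, which had no peak, held 52 GGAC (7.89 per kb), and Notch3 held 45. Covered mRNA bases were richer in G and C in each of the 5 genes, at 58.3% against 55.0% in Notch1, 56.7% against 48.4% in Notch2, 55.2% against 47.6% in Jag1, 69.0% against 61.3% in Jag2 and 59.8% against 53.1% in Dll1. Over the coding sequence alone the difference had the same direction and was smaller, at 59.1% against 58.5% in Notch1, 57.6% against 53.8% in Notch2, 55.2% against 52.2% in Jag1, 69.0% against 61.7% in Jag2 and 60.0% against 58.8% in Dll1. The part of base composition in the peaks was not tested.

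Of the other pathway genes, those of the nuclear complex had a shared peak most often. Of 43 listed genes, 13 had a shared peak (30.2%), with 12.0% of all protein-coding genes and 18.3% of those with at least 2850 exonic bases. They were 6 of 8 genes of the nuclear complex, 4 of 11 endocytic and ubiquitin regulators, 1 of 9 receptor proteases, 1 of 5 glycosyltransferases, 1 of 7 targets and 0 of 3 ligand-like genes. Exonic length ran from 5528 to 14089 bases in the nuclear complex and from 1363 to 5113 in the targets. The part of length in these counts was not tested. Spen, a corepressor partner of Rbpj, had 8 shared peaks over 51.6% of its exonic bases, with the best pair at 2.80 in replicate 1 and 8.08 in replicate 2. That best pair was classed as intronic by its position. The coactivators Maml1, Maml2 and Maml3 had 5, 4 and 4 shared peaks, with best pairs at 4.01 and 2.98, 4.19 and 5.20, and 3.75 and 4.27. Of the 4 in Maml2, 1 also lay over exons of another gene. The corepressor Ncor1 had 1 shared peak, at 1.65 and 2.45. Rbpj itself, the DNA-binding partner, had no peak in either replicate, although its exons sum to 12750 bases.

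Among regulators of ligand endocytosis, the ubiquitin ligase Neurl1b had 7 shared peaks over 59.7% of its exonic bases, close to the share of Notch2. Its best pair (5.12 and 3.70) was classed as intronic. Mib1, the ligase that drives ligand internalisation, had 8 shared peaks at 2.16 and 2.80 for the best pair. Dtx4 had 4 shared peaks (best pair 4.02 and 4.08, classed as intergenic) and Dtx1 had 2 (1.96 and 2.1), both Deltex family ligases. Among the proteases the gamma-secretase subunit Aph1c alone had a shared peak (5.73 and 2.65, classed as intronic), with 74 exonic bases under both replicates. Adam10, Adam17, Psen2 and Ncstn had no peak. Of the target repressors, Heyl had 2 shared peaks (4.45 and 3.34), while Hes1, Hey1 and Hey2 had no peak, Hes5 had 1 in replicate 2 and Nrarp 1 in replicate 1. In all, 27 of the 43 genes had no peak in either replicate.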

How the data were processed

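Prrc2a RIP-seq was performed on wild type whole brain, and the 2 replicates are separate peak lists. The authors used TopHat against mm10 on trimmed reads, discarded reads that mapped more than once or had a mapping quality below 20, and ran MACS2 on each replicate without a model at an FDR below 0.05. The submitters' processing notes name TopHat2 2.0.9 and MACS2 2.0.10, while the paper's methods give other versions of both tools. The deposited values are the position and the fold enrichment, a linear ratio over a control library that the methods do not name. Strand, FDR and read totals are not in the lists, so depth and precision are unknown, and replicates may share tissue.

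Peaks were joined to GENCODE M21 exons with Python 3.11.15, numpy 2.4.6 and pandas 2.3.3, and the shared count was checked with bedtools 2.31.1. A peak over several genes counted for each. The main transcript was the APPRIS principal protein-coding one with the longest CDS. On simulated peaks over 600 genes, 8 of 8 planted quantities were recovered. Members, lists and tests were chosen with earlier results of these data known. All members were named, pathway genes with a shared peak (up to 12, by mean fold of the best) and others of roles with fewer than 6 such genes, and the 3 genes on either side of the leading member in covered share. Values of some listed pathway genes are not reported here. Alternatives changed the overlap, fold, exon rule, gene rule, annotation, region rule, motif and replicate.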

Additional observations from a re-analysis of the deposited data

How the results depend on the processing

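The 5 members with a shared peak (Notch1, Notch2, Jag1, Jag2 and Dll1) were 5 under every overlap, exon, gene and annotation rule tried and at a fold enrichment of at least 2. When both replicates had to reach a fold of 4, 1 member remained, Notch1 with 2 shared peaks, and 2 other pathway genes and 348 protein-coding genes had such a peak, with 306 exonic bases of members under both replicates in place of 15155. With peaks at least 50% exonic, 29 shared peaks were counted, 11 in Notch1 and 11 in Notch2, since peaks over short exons reach into introns. Leaving out 1 replicate gave 6 to 7 members, 51 to 68 peaks, 14 to 15 pathway genes and 3617 to 4619 protein-coding genes. The coding share fell from 74.5% to 48.9% by the region with the most bases and was 72.1% to 76.5% over all peaks of a single replicate. The GGAC share was 29.8% for GGACT, 71.7% over bases under both replicates (33 of 46 peaks, 1 having no such exonic base), and 76.5% to 78.4% with 1 replicate left out. Peaks over exons of no other gene, an alternative chosen after seeing the data, left 43 shared peaks in 5 members, 17 in Notch1, 19 in Notch2 and 1 in Dll1. No paired analysis was possible because the lists hold 1 condition. Depth is unknown, so the absence of peaks at Notch4 and Dll3 sets no limit on binding.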
